A study of Mus musculus with 11 samples.

Results

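The 41 genes described here encode proteins that hepatocytes release into the blood, other than serpins and apolipoproteins. They were taken by name and comprise 16 coagulation genes, 15 complement genes and 10 genes for carriers and related plasma proteins. The array held 53 probes for them, with complement component C5 under its mouse symbol Hc and hemopexin (Hpx) under the older name Hpxn. All 41 genes were among the 15893 genes tested, and the probe each was read from was well above background on all 11 arrays.

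The samples were livers of newborn mice on a hybrid 129 x C57BL/6 background. Mutants were double transgenic and carried AFP-Cre, in which the alpha-fetoprotein promoter drives Cre, together with Rosa26-lsl-NICD, an allele from which Cre releases the Notch intracellular domain, the active part of the Notch receptor. Controls were mono transgenic for Rosa26-lsl-NICD, so both genotypes carried that allele and no group carried AFP-Cre alone. There were 2 control and 3 mutant arrays at the day of birth (day 0) and 3 control and 3 mutant arrays at day 2. The labels do not say whether littermates were used or whether an array held 1 liver, so p-values measure the spread between these arrays.

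Hepatocytes make most clotting factors, complement proteins and transport proteins of the plasma, and many of these genes are switched on or raised in the liver around birth. In coagulation, proteases activate one another until thrombin turns fibrinogen into fibrin, which plasmin later dissolves. In complement, the classical, lectin and alternative pathways meet at C3 and end in the membrane attack complex. Notch signalling directs liver progenitors towards bile duct cells.

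Levels are given on a log2 scale on which 0 is the 75th percentile of the array's own processed signals and a step of 1 is a doubling. They do not rank genes against each other, since probes differ in brightness. The 75th percentile signal ranged from 607.7 to 1302 between arrays, and 63.3% to 68.6% of spots were well above background. At day 2 the 75th percentile signal was 815, 794 and 975 in controls and 1302, 1053 and 1112 in mutants. The value subtracted therefore differed by genotype at day 2, and fits with other scaling are given below. Its part in the differences was not tested. Replicate arrays correlated across genes at 0.983 or more, apart from mutant day 0 replicate 3, which correlated at 0.954 and 0.952 with its replicates. Of 15688 genes measured on every array, that array lay more than 1 below all other arrays for 469 and more than 1 above for 602. On any other array these counts were at most 66 and 44. The Notch target Nrarp was higher in mutants by 3.79 on the log2 scale (SE 0.20, limma adjusted p = 1.03e-05), and Notch1 differed by 0.20 (adjusted p = 0.75). The files do not say whether the Notch1 probe reads the transgene. At day 0 the 2 controls were male and the 3 mutants female by their Y-linked and Xist signals, whereas each day 2 group held 1 male and 2 females. Slide, scan and replicate number coincide, and each group had its own position on the slides, so position and group cannot be told apart.

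The promoters of 3 members hold a shortened letter form of the HNF1 binding motif. Those of the paired genes Mbl2 and Mbl1 are shown with them because Mbl2 was lower in mutants and Mbl1 was not called. RefSeq promoters on GRCm38.p6 were found for 32 of the 41 members. These 32 genes have 34 promoters, and a gene was counted if any of its promoters matched, whereas shares of all promoters count each promoter. The motif, written as GTTAAT followed by any base and then ATT and searched on both strands of the 250 bases before the start, was in 3 of these 32 genes (9.38%) and in 0.371% of 32851 promoters. The lines give the 150 bases before the start of each gene, 5′ to 3′ along its strand, with the motif in capitals. C4bp is at chr1:130661619-130661768 (minus strand), Hc at chr2:35061413-35061562 (minus) and F13b at chr1:139501557-139501706 (plus).
C4bp: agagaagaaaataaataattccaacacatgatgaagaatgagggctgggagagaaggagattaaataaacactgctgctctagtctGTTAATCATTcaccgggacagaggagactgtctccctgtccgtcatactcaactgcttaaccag
Hc: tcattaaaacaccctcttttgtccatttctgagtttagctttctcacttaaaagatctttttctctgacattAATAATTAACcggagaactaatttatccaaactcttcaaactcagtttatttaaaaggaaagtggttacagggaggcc
F13b: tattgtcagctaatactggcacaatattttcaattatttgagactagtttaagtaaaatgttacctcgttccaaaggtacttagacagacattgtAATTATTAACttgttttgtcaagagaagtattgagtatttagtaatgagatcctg
The matches lie 64 to 55 bases before the start in C4bp, 78 to 69 in Hc and 55 to 46 in F13b. All 3 genes were lower in mutants, as described with their roles. The first arm of the motif alone, GTTAAT, which lies inside the longer one, was in 9 of the 32 genes (28.1%) against 6.43% of promoters.

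The fibrinogen genes Fga and Fgb are neighbours, and both promoters hold GTTAAT and the C/EBP motif TTGCNNAA within 150 bases of the start. Capitals mark both motifs, for Fga at chr3:83026003-83026152 (plus strand) and for Fgb at chr3:83049864-83050013 (minus).
Fga: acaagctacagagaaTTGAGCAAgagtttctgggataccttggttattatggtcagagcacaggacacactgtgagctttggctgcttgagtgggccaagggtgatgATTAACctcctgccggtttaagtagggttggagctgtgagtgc
Fgb: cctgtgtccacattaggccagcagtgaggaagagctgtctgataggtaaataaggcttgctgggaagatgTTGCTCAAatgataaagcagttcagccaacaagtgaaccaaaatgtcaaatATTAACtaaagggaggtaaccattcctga
TTGCNNAA was in 11 of the 32 genes (34.4%) and in 9.56% of promoters. CAAAGTCCA, a letter form of the HNF4 motif, was in none of the 32 and in 0.384% of promoters. The RBPJ motif GTGGGAA, bound by the DNA-binding partner of the Notch intracellular domain, was in Hpx alone (3.12%, against 5.42% of promoters).

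The mannose-binding lectin genes Mbl2 (chr19:30232778-30232927, plus strand) and Mbl1 (chr14:41151306-41151455, plus) share a run of 13 bases, shown in capitals.
Mbl2: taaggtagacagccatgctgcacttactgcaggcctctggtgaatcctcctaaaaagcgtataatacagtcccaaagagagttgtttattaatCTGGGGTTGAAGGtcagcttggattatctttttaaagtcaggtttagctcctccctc
Mbl1: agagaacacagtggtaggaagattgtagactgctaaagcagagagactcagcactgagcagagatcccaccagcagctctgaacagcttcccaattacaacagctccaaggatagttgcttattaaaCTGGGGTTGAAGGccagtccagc
The run CTGGGGTTGAAGG was picked as the longest that the shown bases share. It was in 3 of the 32851 promoters (0.00913%), those of Mbl2 and Mbl1 included, so the count does not tell whether the run is special. Neither Mbl promoter held any motif searched. A match, or its absence, describes these letters and says nothing of binding.

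In mutant livers 26 of the 41 genes were lower over both days and none was higher (limma, Benjamini-Hochberg over all genes tested, adjusted p under 0.05). That is 63.4% of the members, against 6.93% of all genes called lower and 8.8% called higher. The median log2 difference, mutant minus control, was -0.61 for the members and -0.051 for all genes tested. Coagulation had 12 of 16 genes lower (median -0.72), complement 9 of 15 (median -0.86) and the carriers 5 of 10 (median -0.37). The estimate lay below 0 for 40 of 41 genes, and the exception was C9, at 0.54 (SE 0.26, adjusted p = 0.21). The 40 include Fgb and C3, whose saturated spots make the estimate no measure of size. In whole liver, fewer cells of a type and less RNA per cell cannot be told apart.

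The calls differed in number between the days. At day 2, 26 genes were lower (12 coagulation, 7 complement, 7 carriers), against 6.56% of all genes called lower and 9.64% called higher, and 21 of them were also called over both days. At day 0, 2 genes were lower, F9 and C4bp, against 0.711% of all genes called lower and 1.6% called higher. With 2 controls on that day, 15 genes were below 0 at an unadjusted p under 0.05. At day 2 every mutant array lay below every control array for 35 of 41 genes (24.6% of all genes did so), and at day 0 for 25 of 41 (15.1%). No member had every mutant above every control on either day, as 20.9% of all genes did at day 2 and 16.5% at day 0. No gene passed the test of whether the difference changed between the days (limma, 8 at an unadjusted p under 0.05; 0.271% of all genes were called).

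Several of these counts changed when 1 array was left out or another setting was used. Over both days the count was 15 without control day 0 replicate 1 and 12 without control day 0 replicate 2. It was 16 without control day 2 replicate 2, 17 without mutant day 2 replicate 2 and 13 with pup sex as a covariate. The number of all genes called lower, 1101 in the main fit, was 522, 487, 627, 621 and 354 in the same order. In each of these fits 40 of 41 member estimates lay below 0, with a member median between -0.684 and -0.547. Leaving out 1 array gave at most 29 members over both days, and 1988 of all genes were called lower without mutant day 0 replicate 3. After quantile normalization 991 genes were called lower over both days. The member median was then -0.463, with 38 of 41 estimates below 0. In the authors' deposited table these values were 1026, -0.534 and 37 of 40. The day 2 and day 0 counts that follow lack the share of all genes called in the same fit. They do not tell a loss particular to the members from a general one. At day 2 the member count was 14 without control replicate 1 or control replicate 2, 16 without mutant replicate 1 and 13 without mutant replicate 2. It was 8 after quantile normalization and 9 in the authors' deposited table. At day 0 it was 0 with pup sex as a covariate, without either control, without mutant replicate 1 or 2 and without mutant day 2 replicate 1, and 1 without control day 2 replicate 1 or 2, without mutant day 2 replicate 3 and without the filter on dim probes. Without control day 0 replicate 1 or 2 the coagulation count over both days was 7 and 6 and the complement count 5 and 3, and the complement count was also 5 without control day 2 replicate 2 or mutant day 2 replicate 2. The carrier count was 3 without any 1 array other than control day 2 replicate 3 and mutant day 0 replicate 3. The same-numbered day 2 arrays deviated together, and with the replicate number as a block the count was 19 over both days, 1 at day 0 and 23 at day 2. In that fit F5, F12, Fgg, Cfb, Masp2, Trf and Rbp4 lost their call over both days (adjusted p from 0.053 to 0.093), F9 lost it at day 0 (0.09), and the carrier count was 3. At day 2 C3, Cfb, Masp2, Hp and Ahsg lost it (0.051 to 0.08), and C6 (0.034) and C4bp (0.045) passed. Within slide 1 the median difference over both days was -0.58 for coagulation, -0.64 for complement and -0.47 for the carriers, and within slide 2 it was -0.81, -0.91 and -0.48. Slide 3 held no day 0 control, and its day 2 medians were -0.43, -0.66 and -0.35.

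**Figure D1:**
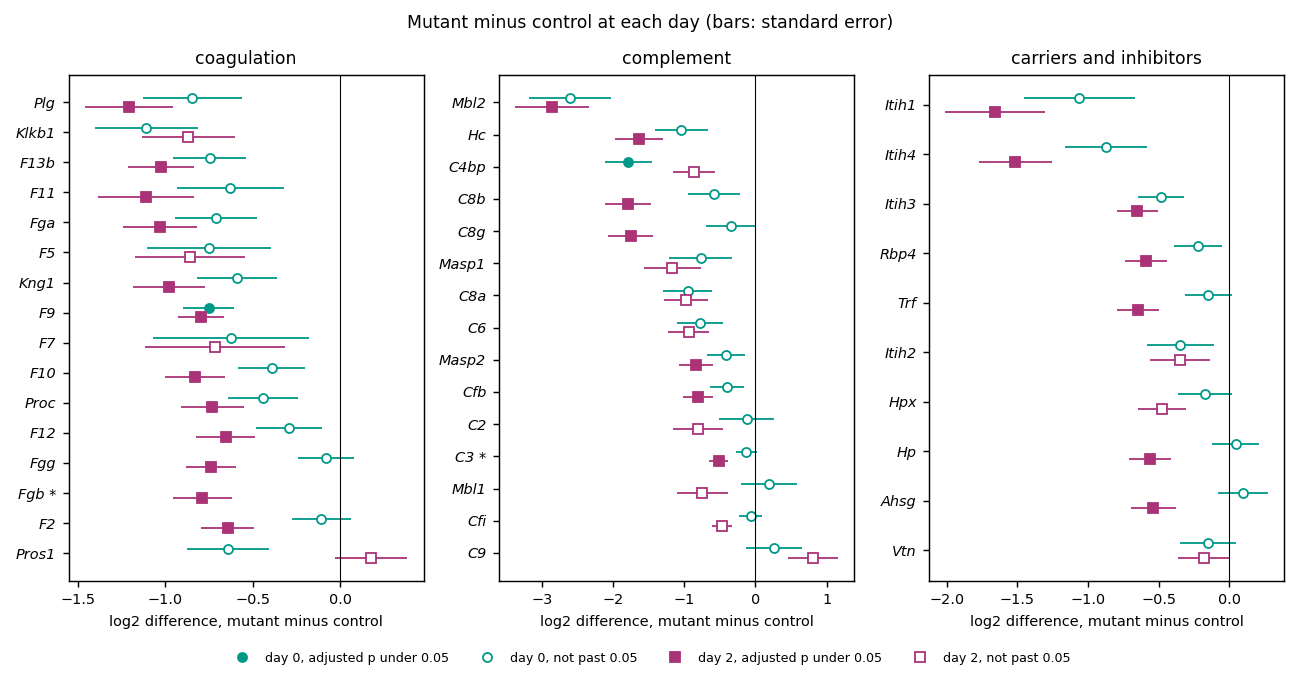
Log2 difference, mutant minus control, of each gene at day 0 (circles) and day 2 (squares), with bars of 1 standard error and filled symbols where the adjusted p was under 0.05. At day 2 26 of 41 genes are filled and all of these lie below 0; at day 0 F9 and C4bp are filled. Asterisks mark Fgb and C3, which had saturated spots, and Fgb has no day 0 point because it was saturated on all 5 arrays.

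Markers of several cell types moved with these counts. At day 2 the summed linear signal of 8 hepatocyte markers, relative to the 75th percentile, was 1575 to 1932 in controls and 1163 to 1258 in mutants. At day 0 it was 1756 to 1888 and 1458 to 2004, and the sum includes Alb, which was saturated on all 11 arrays. Over both days all 8 hepatocyte estimates lay below 0, Alb included, with a median log2 difference of -0.82 against -0.61 for the members. Of the 8, 4 were called lower over both days (Tat, Apoa1, Cps1 and Apob). The sum of 6 bile duct markers was 9.26 to 16.8 in day 2 controls and 221 to 266 in day 2 mutants, and 21.4 to 24.2 and 92.5 to 340.3 at day 0, with all 6 higher over both days. The sum of 8 erythroid markers was 261 to 268 in controls and 192 to 238 in mutants at day 0, and 154 to 241 and 45.1 to 83.9 at day 2. At day 2 that of 7 megakaryocyte markers was 87.3 to 95.3 in controls and 43.9 to 50.7 in mutants, that of 6 granulocyte markers 117 to 141 and 80.3 to 101.3, and that of 6 stellate cell markers 15.3 to 17.5 and 22.3 to 56.2. These 3 sums overlapped at day 0. The macrophage and endothelial sums overlapped on both days. Every marker was measured above background in at least 1 group. Their part in the results was not tested.

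All 4 genes of the contact system, which starts clotting on charged surfaces, were lower over both days. Klkb1 encodes plasma prekallikrein. Its values were 2.04 and 1.81 in day 0 controls, 1.14, 0.92 and 0.38 in day 0 mutants, 1.70, 1.92 and 1.71 in day 2 controls and 1.15, 0.36 and 1.22 in day 2 mutants. Every mutant lay below every control of either day, and the difference was -0.99 (SE 0.20, 1.98-fold, adjusted p = 0.0096). F11, encoding factor XI and lying 30.9 kb from Klkb1 by its probe (chr8, mm8), was lower by 1.83-fold (-0.87, SE 0.21, adjusted p = 0.021). Its day 0 controls stood at 5.13 and 5.27 against 4.93, 4.77 and 4.01 in mutants, and its day 2 controls at 4.90, 5.02 and 4.77 against 4.06, 3.28 and 4.02. The groups did not overlap on either day. Kng1, the kininogen that kallikrein cleaves once formed from prekallikrein, was lower by 1.72-fold (-0.79, SE 0.15). The second Kng1 probe gave -0.92 (SE 0.20). F12, factor XII, had the smallest difference of the 4 (-0.47, SE 0.13, adjusted p = 0.033).

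Of the 6 vitamin K dependent factors, whose clotting function needs carboxylated glutamates, F9, F10 and Proc were lower over both days. F9, the X-linked gene of factor IX, had values of 0.96 and 0.93 in day 0 controls and 0.32, 0.22 and 0.03 in day 0 mutants. At day 2 the controls stood at 1.20, 1.30 and 1.09 and the mutants at 0.42, 0.28 and 0.50. All 6 mutants lay below all 5 controls, with a difference of -0.75 (SE 0.15, adjusted p = 0.034) at day 0 and -0.80 (SE 0.13, adjusted p = 0.004) at day 2. Over both days F9 was 1.71-fold lower, and its second probe gave -0.87 (SE 0.14). F10, the factor X gene next to F7, was lower by 0.61 on the log2 scale (SE 0.13) and Proc, encoding protein C, an anticoagulant, by 0.59 (SE 0.13). F2, encoding prothrombin, was lower at day 2 (-0.64, SE 0.15, adjusted p = 0.02), where mutants stood at 7.88, 7.76 and 7.94 and controls at 8.75, 8.50 and 8.27. F7 differed by -0.67 (SE 0.30, adjusted p = 0.17), with 1 day 0 mutant at 0.57 and the other two at 1.93 and 2.19. Pros1, the cofactor of protein C, differed by -0.64 (SE 0.23) at day 0 and 0.18 (SE 0.21) at day 2, neither past the threshold.

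The genes that form and remove fibrin were lower as well, 4 of 5 over both days and all 5 at day 2. Plg encodes plasminogen, the precursor of plasmin. Its values were 6.88 and 7.03 in day 0 controls, 6.25, 5.91 and 6.16 in day 0 mutants, 7.24, 6.89 and 6.28 in day 2 controls and 5.81, 5.23 and 5.74 in day 2 mutants. All mutants lay below all controls, with a 2.04-fold difference (-1.03, SE 0.19, adjusted p = 0.0065) and -1.02 (SE 0.18) on the second probe. F13b encodes the carrier subunit of factor XIII, which cross-links fibrin. It stood at 3.99 and 4.10 in day 0 controls against 3.43, 3.45 and 3.02 in mutants, and at 4.17, 4.34 and 3.89 in day 2 controls against 3.07, 2.89 and 3.36. Its groups did not overlap, and it was 1.85-fold lower (-0.89, SE 0.14, adjusted p = 0.003). F5, the cofactor of factor X, was lower by 1.75-fold (-0.81, SE 0.24, adjusted p = 0.049).

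The 3 fibrinogen chains, whose probes lie within 27.4 kb of each other on chromosome 3, gave different values. Fga read 6.97 and 7.25 in day 0 controls, 6.45, 6.59 and 6.16 in day 0 mutants, 5.53, 5.87 and 5.13 in day 2 controls and 4.54, 4.29 and 4.60 in day 2 mutants. It was lower in mutants by 1.83-fold over both days (-0.87, SE 0.16, adjusted p = 0.0058), and both genotypes were lower at day 2 than at day 0. Fgg differed by -0.08 (SE 0.16) at day 0 and was lower by 1.67-fold at day 2 (-0.74, SE 0.14, adjusted p = 0.008). Fgb was saturated on all 5 day 0 arrays, so no difference is given for that day or over both days. At day 2, without saturation, Fgb stood at 9.55, 9.30 and 9.08 in controls and 8.56, 8.36 and 8.65 in mutants, a 1.73-fold lower level (-0.79, SE 0.17, adjusted p = 0.013).

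**Figure D2:**
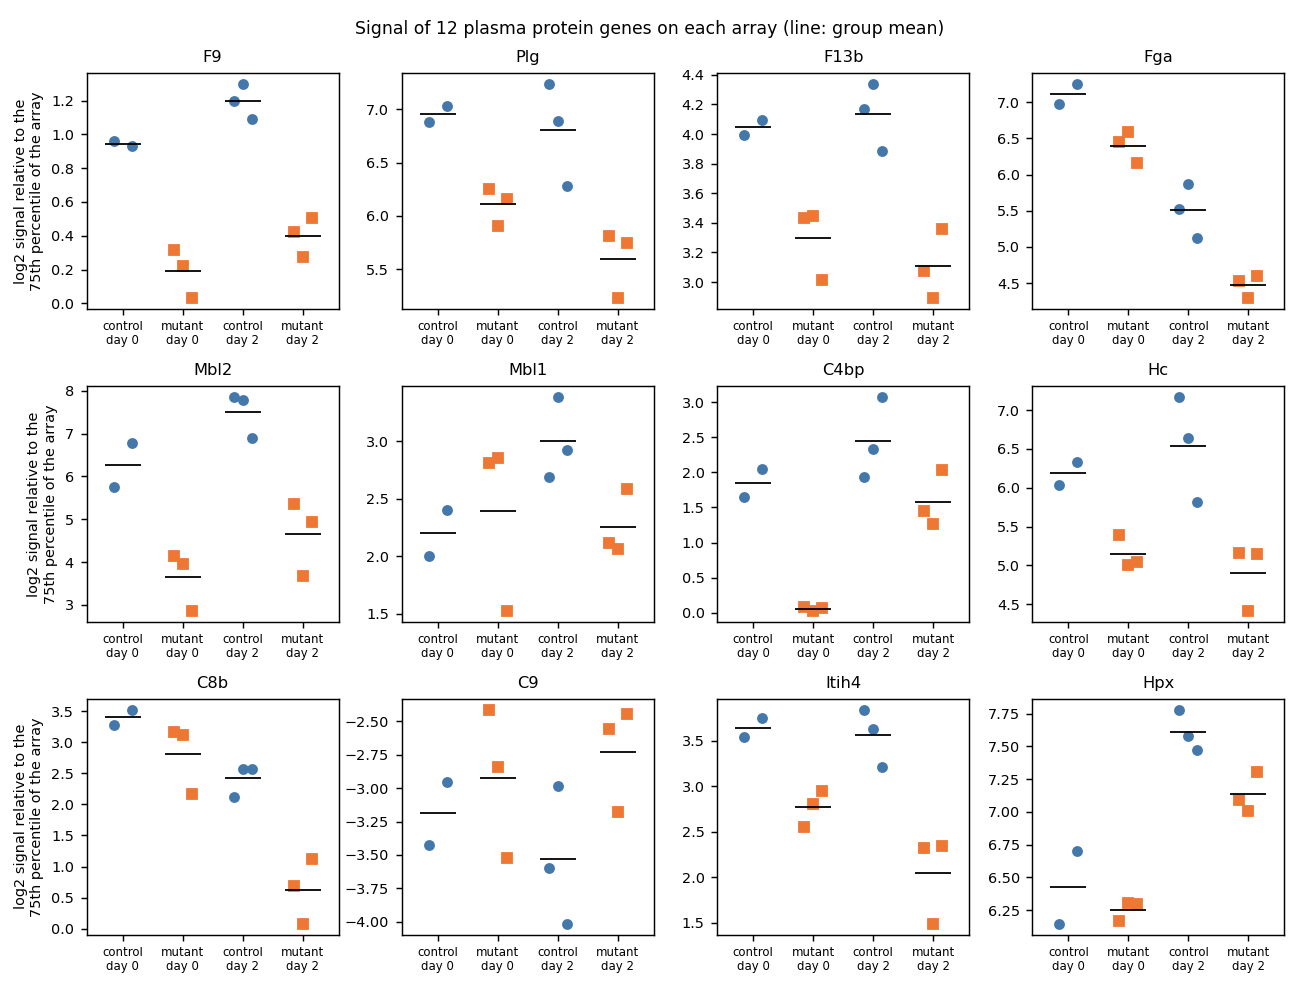
Log2 signal above or below the array's 75th percentile (vertical axis) for 12 of the 41 genes, with 1 point per array (circles, controls; squares, mutants) and a line at the group mean. The mutants lie below the controls of their day in F9, Plg, F13b, Fga, Mbl2, Hc and Itih4 on both days, while Mbl1 overlaps at day 0 and C9 on both days; vertical axes differ between panels and do not start at 0.

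The lectin pathway held the largest difference of the 41 genes. Mbl2 encodes mannose-binding lectin C, which binds sugars on microbes. It stood at 5.74 and 6.77 in day 0 controls, 4.15, 3.95 and 2.86 in day 0 mutants, 7.86, 7.79 and 6.89 in day 2 controls and 5.35, 3.67 and 4.94 in day 2 mutants. Every mutant lay below every control, and Mbl2 was 6.65-fold lower over both days (-2.73, SE 0.39, adjusted p = 0.0016). The difference was -2.61 (SE 0.58, adjusted p = 0.053) at day 0 and -2.86 (SE 0.52, adjusted p = 0.0058) at day 2. Within slides 1 and 2 it was -2.05 and -3.47 over both days, and within slide 3 it was -1.95 at day 2. Mbl1, encoding mannose-binding lectin A, read 2.01 and 2.40 in day 0 controls and 2.81, 2.85 and 1.53 in day 0 mutants, which overlap. At day 2 its controls read 2.69, 3.38 and 2.92 and its mutants 2.12, 2.06 and 2.58, with no overlap, but the difference did not pass the test (-0.74, SE 0.36, adjusted p = 0.19). The difference of Mbl2 was not tested against that of Mbl1.

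The serine proteases that act with these lectins gave values that differed between probes, in direction for Masp1 and in size for Masp2. Masp2 was lower over both days by its brightest probe (-0.62, SE 0.18, adjusted p = 0.045 over genes and 0.053 over all probes). That probe read 2.79 and 2.85 in day 0 controls and 2.66, 2.75 and 1.82 in day 0 mutants. Another probe of the same transcript record differed by -0.69 (SE 0.19, adjusted p = 0.04 over all probes). A probe named for a second transcript record of Masp2 read 1.82 and 1.66 in day 0 controls, 0.82, 0.74 and 0.08 in day 0 mutants, 2.02, 1.99 and 1.91 in day 2 controls and 0.81, 0.33 and 1.24 in day 2 mutants. That probe differed by -1.19 (SE 0.19, adjusted p = 0.0039 over all probes). The brightest Masp1 probe differed by -0.97 (SE 0.30, adjusted p = 0.056), and the second by -0.54 (SE 0.17). The third Masp1 probe, named for a separate transcript record, differed by 0.01 (SE 0.10, adjusted p = 0.97 over all probes) and lay between 2.39 and 2.87 on all 11 arrays. The fourth was well above background on 7 arrays and differed by 0.70 (SE 0.23, adjusted p = 0.075 over all probes).

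**Figure D3:**
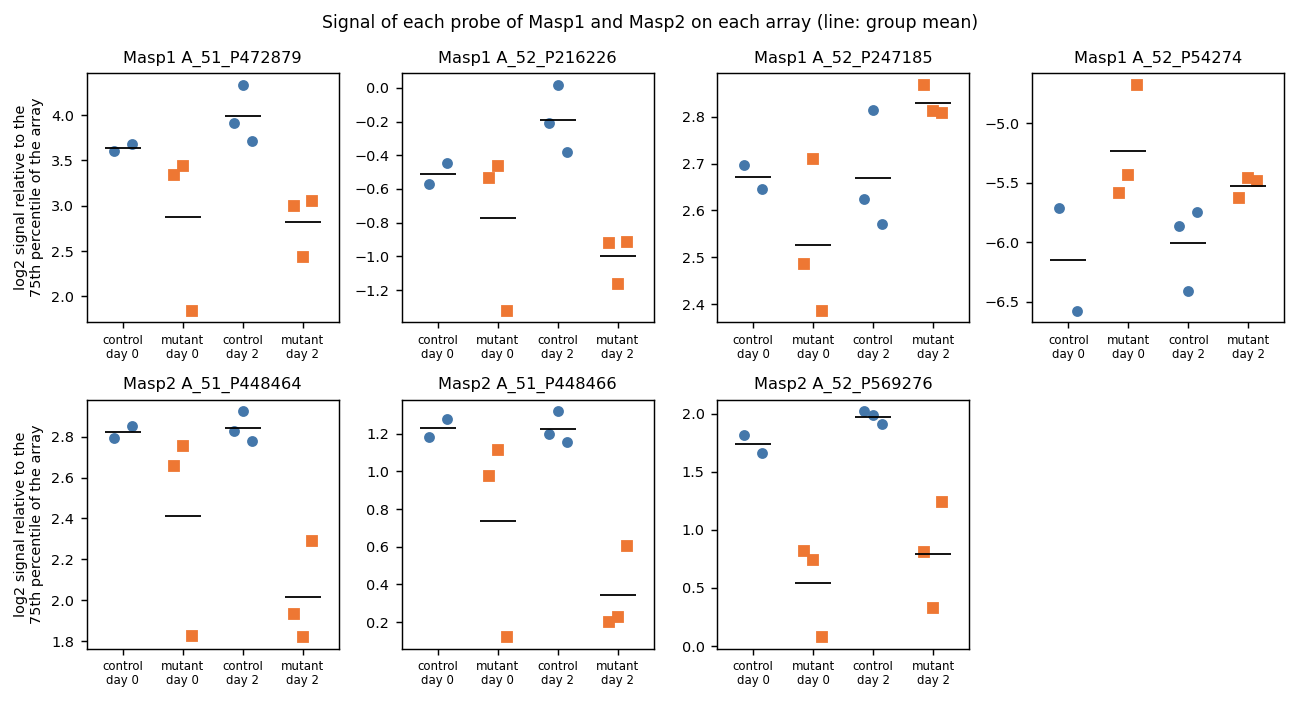
Log2 signal above or below the array's 75th percentile (vertical axis) for the 4 probes of Masp1 (upper row) and the 3 probes of Masp2 (lower row), with 1 point per array (circles, controls; squares, mutants) and a line at the group mean. The third Masp1 panel lies between 2.39 and 2.87 in all groups, and the third Masp2 panel has every mutant below every control; vertical axes differ between panels and do not start at 0.

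Of the 6 members that belong to the membrane attack complex, which punches pores into membranes, Hc, C6, C8a, C8b and C8g were lower over both days. C7, also part of the complex, was not a member and was not among the genes tested. Hc, encoding C5, stood at 6.04 and 6.33 in day 0 controls, 5.39, 5.01 and 5.04 in day 0 mutants, 7.17, 6.64 and 5.81 in day 2 controls and 5.16, 4.41 and 5.15 in day 2 mutants. All mutants lay below all controls, with a 2.53-fold difference (-1.34, SE 0.25, adjusted p = 0.0072). C8b, the beta chain of C8, read 3.28 and 3.52 in day 0 controls and 3.17, 3.11 and 2.17 in mutants, and 2.12, 2.57 and 2.57 in day 2 controls against 0.68, 0.08 and 1.12. It was 3.46-fold lower at day 2 (-1.79, SE 0.33, adjusted p = 0.0061), and its day 0 difference was -0.58 (SE 0.36, adjusted p = 0.5). The change in this difference between the days was -1.21 (SE 0.49, adjusted p = 0.3). C8g, the gamma chain, encoded on another chromosome, read 3.32 and 3.72 in day 0 controls and 3.31, 2.93 and 3.28 in day 0 mutants. At day 2 it read 4.50, 3.96 and 3.23 in controls and 2.21, 1.77 and 2.44 in mutants, a 3.37-fold lower level (-1.75, SE 0.31, adjusted p = 0.0055). C8a, the alpha chain, whose probe lies 11.4 kb from that of C8b on chromosome 4, was lower by 1.95-fold over both days (-0.96, SE 0.23, adjusted p = 0.022). C8a controls stood at 3.03 and 3.01 at day 0 and 3.43, 3.67 and 3.44 at day 2, above mutants at 2.56, 2.39 and 1.27 and at 2.63, 2.22 and 2.78. C6 was lower by 1.81-fold (-0.86, SE 0.22), from values between -2.35 and -1.99 in controls to between -3.57 and -2.36 in mutants. C9, which forms the ring of the pore, read -3.43 and -2.95 in day 0 controls, -2.41, -2.84 and -3.52 in day 0 mutants, -3.60, -2.99 and -4.02 in day 2 controls and -2.56, -3.18 and -2.44 in day 2 mutants, and its groups overlapped on both days.

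Of the 5 convertase proteins and regulators, C4bp and Cfb were lower over both days. C4bp encodes the C4b-binding protein, which holds the classical pathway in check. Its day 0 controls stood at 1.64 and 2.05 and its day 0 mutants at 0.09, 0.02 and 0.07. At day 2 the controls read 1.94, 2.33 and 3.08 and the mutants 1.45, 1.26 and 2.04, so that 1 mutant lay above 1 control. C4bp was 3.45-fold lower at day 0 (-1.79, SE 0.33, adjusted p = 0.028), and at day 2 it differed by -0.87 (SE 0.30, adjusted p = 0.077). The second C4bp probe was well above background on 1 array and was not tested. Cfb, factor B of the alternative pathway, was lower by 1.52-fold over both days (-0.60, SE 0.16, adjusted p = 0.031), and its chromosome 17 neighbour C2 differed by -0.46 (SE 0.26, adjusted p = 0.27). Cfi, the protease that cuts C3b and C4b, differed by -0.27 (SE 0.11, adjusted p = 0.14). C3, the hub of all 3 pathways, was read from a probe with 10 spots per array and was saturated on 9 of 11 arrays, all 5 controls among them. Its group means were 9.59 and 9.55 in controls and 9.46 and 9.04 in mutants at day 0 and day 2, and no fold is read from them, although C3 is among the 7 complement calls at day 2. The unsaturated second C3 probe differed by -0.43 (SE 0.16, adjusted p = 0.11 over all probes).

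Of the 4 genes of the inter-alpha inhibitor heavy chain family, Itih1, Itih3 and Itih4 were lower over both days. They had the largest differences among the carriers. Itih1 stood at 3.20 and 3.43 in day 0 controls, 2.43, 2.47 and 1.88 in day 0 mutants, 3.95, 3.24 and 2.75 in day 2 controls and 2.13, 1.05 and 1.80 in day 2 mutants. Its mutants all lay below its controls, with a 2.57-fold difference over both days (-1.36, SE 0.26, adjusted p = 0.0083). Itih4, an acute phase protein of this family, read 3.54 and 3.75 in day 0 controls against 2.55, 2.80 and 2.95 in mutants, and 3.84, 3.63 and 3.22 in day 2 controls against 2.32, 1.49 and 2.34. It was 2.29-fold lower (-1.19, SE 0.19, adjusted p = 0.0033). Itih3 was 1.48-fold lower (-0.57, SE 0.11, adjusted p = 0.0078), with 8.20 and 8.31 in day 0 controls against 7.85, 7.59 and 7.89 in mutants, and 8.31, 8.23 and 7.96 in day 2 controls against 7.59, 7.42 and 7.54. The probes of Itih1, Itih3 and Itih4 lie within 36.1 kb on chromosome 14, and no mutant of these 3 genes lay above a control of its day. Itih2, on chromosome 2, differed by -0.35 (SE 0.16, adjusted p = 0.18).

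Of the carriers of iron, retinol, heme and haemoglobin, Trf and Rbp4 were lower over both days. Trf, encoding transferrin, was lower by 1.32-fold over both days (-0.40, SE 0.11, adjusted p = 0.042), with day 2 controls at 9.11, 8.89 and 8.70 and day 2 mutants at 8.24, 8.22 and 8.30. Its day 0 controls read 9.13 and 9.27 and its day 0 mutants 8.90, 9.01 and 9.26. Rbp4, the retinol carrier, was also lower by 1.32-fold (-0.41, SE 0.11, adjusted p = 0.039). It read 8.57 and 8.52 in day 0 controls, 8.14, 8.25 and 8.58 in day 0 mutants, 8.64, 8.59 and 8.39 in day 2 controls and 7.84, 7.96 and 8.04 in day 2 mutants. For both genes the groups overlapped at day 0 and stood apart at day 2. Hp, encoding haptoglobin, which binds free haemoglobin, was lower at day 2 (-0.56, SE 0.15, adjusted p = 0.031), with an estimate of 0.05 (SE 0.17) at day 0. Ahsg, the mineral-binding fetuin-A, was lower at day 2 (-0.54, SE 0.16, adjusted p = 0.047), and was saturated on 1 control array at that day. The direction of the Hp estimate over both days turned after quantile normalization (0.02), and that of Ahsg in the authors' deposited table (0.06). Hpx, hemopexin, which binds heme, differed by -0.32 (SE 0.13, adjusted p = 0.13). Vtn, encoding vitronectin, an adhesion protein of plasma and matrix, differed by -0.17 (SE 0.13, adjusted p = 0.46), with overlap on both days, and its sign turned under quantile normalization and in the authors' table.

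Between day 0 and day 2, 2 members changed in controls and 12 in mutants, and no change passed the test of a difference between the genotypes. In controls Fga fell by 1.60 on the log2 scale (SE 0.23, adjusted p = 0.0054) and Hpx rose by 1.19 (SE 0.19, adjusted p = 0.0075), where 5.73% of all genes were called lower and 5.5% higher. Hpx read 6.14 and 6.70 in day 0 controls and 7.78, 7.58 and 7.47 in day 2 controls, and 6.17, 6.30 and 6.29 in day 0 mutants and 7.09, 7.01 and 7.31 in day 2 mutants. In mutants 10 members were lower at day 2 (Fga, Fgb, Fgg, F2, C8b, C8g, C3, Cfi, Trf and Ahsg) and 2 were higher (C4bp and Hpx), where 11.3% of all genes were called lower and 9.38% higher. Fga fell by 1.92 (SE 0.21) and C8b by 2.19 (SE 0.33) in mutants. Fgb, saturated at day 0, was at least 2.36-fold lower at day 2 in mutants. C4bp rose by 1.52 in mutants (SE 0.30, adjusted p = 0.0097) and its control difference was 0.60 (SE 0.33, adjusted p = 0.26). With the replicate number as a block C3, C8g, Cfi and Ahsg lost their call in mutants (adjusted p from 0.058 to 0.074). The count in mutants was 7 without mutant day 2 replicate 1, 2 or 3, with pup sex as a covariate, after quantile normalization or with median scaling, and 6 in the authors' table. The count in controls was 1 when pup sex was fitted, likewise without either day 0 control and 5 without mutant day 0 replicate 3. Scaling to the median moved the median of all genes in both day 2 minus day 0 contrasts by about 0.2, to 0.179 in controls and 0.178 in mutants.

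**Figure D4:**
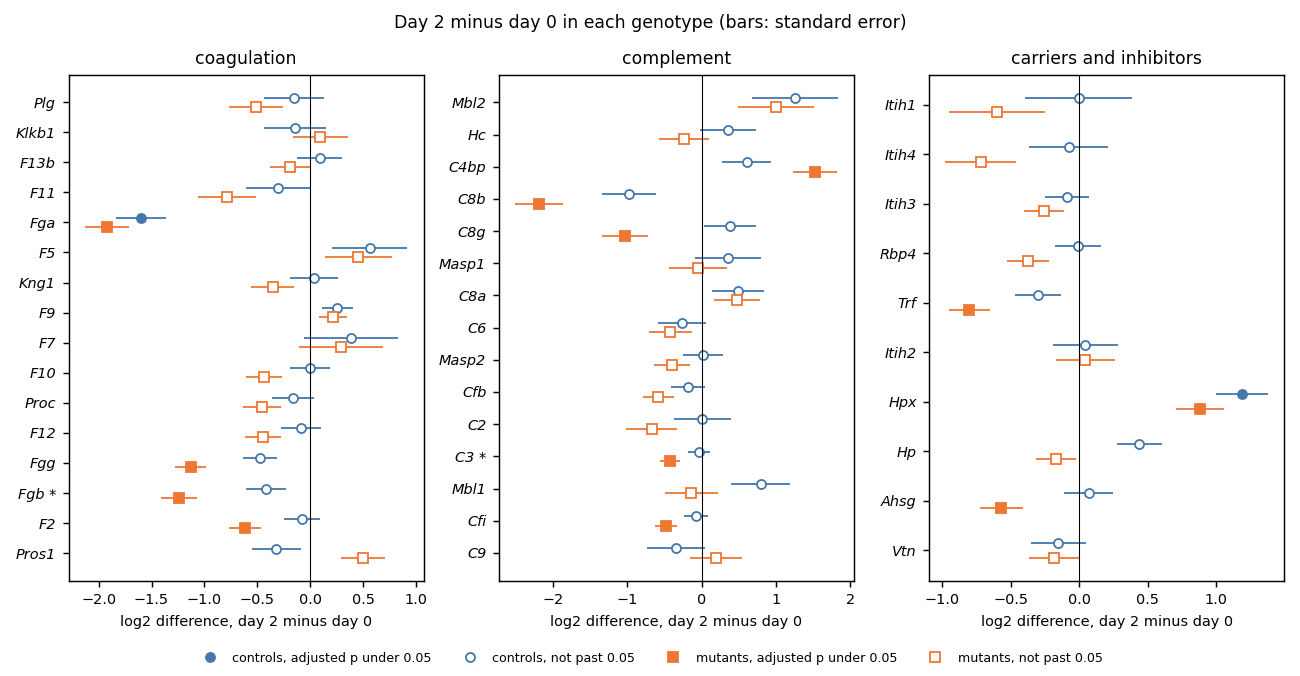
Log2 difference, day 2 minus day 0, of each gene in controls (circles) and mutants (squares), with bars of 1 standard error and filled symbols where the adjusted p was under 0.05. Fga and Hpx are filled in both genotypes, on opposite sides of 0, and 12 genes are filled in mutants. Asterisks mark Fgb and C3, which had saturated spots, so their differences are not read as sizes.

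Other genes of the same pathways were read from fixed lists. Of 23 other coagulation genes tested, of 24 listed, 7 (30.4%) were lower over both days and 4 (17.4%) higher. Over all genes tested 6.93% were called lower and 8.8% higher. Hrg, encoding histidine-rich glycoprotein, was lower by 1.75 on the log2 scale (SE 0.28), Hgfac by 1.42 (SE 0.25) and F8 by 1.08 (SE 0.15). Kng2 was lower by 0.94 (SE 0.15), Cpb2 by 0.47 (SE 0.14) and the vitamin K enzymes Vkorc1 by 0.94 and Ggcx by 0.62. Plat, encoding tissue plasminogen activator, was higher by 1.03 (SE 0.18), and Habp2 and the thrombin receptor F2r by 0.65 and 0.47. F2rl1, a protease-activated receptor, was not well above background on any control array and was on all 6 mutant arrays, at least 1.91-fold higher at day 0 and 2.53-fold at day 2.

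Of 26 other complement genes tested, of 30 listed, 11 (42.3%) were lower over both days and 1 (3.85%) was higher, against 6.93% and 8.8% of all genes. Cfp, encoding properdin, which stabilises the alternative pathway convertase, was lower by 0.72 (SE 0.12). The subunits of C1q, which macrophages make, were lower by 0.62 (C1qa), 0.57 (C1qb) and 0.61 (C1qc). Beside them, 7 of 8 macrophage markers were below 0 over both days (median -0.49), with Csf1r (-0.61, SE 0.12) and Adgre1 (-0.64, SE 0.14) called lower. The summed signal of the 8 was 328 to 348 in controls and 214 to 347 in mutants at day 0, and 188 to 218 and 167 to 208 at day 2. The part of the macrophage markers was not tested. Clu, encoding clusterin, was the gene higher, by 1.10 (SE 0.18). Of 19 other carriers 6 (31.6%) were lower and none was higher, against the same shares of all genes. The 6 include Azgp1, lower by 1.35 (SE 0.18), and the transferrin receptors Tfr2, by 1.01 (SE 0.12), and Tfrc, by 1.05 (SE 0.28). Erythroid cells carry Tfrc in quantity. All 8 erythroid markers were below 0 over both days (median -0.99), and 2 of them were called lower. The part of the erythroid markers in the Tfrc difference was not tested.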

How the data were processed

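Liver RNA was labelled with Cy3 and hybridised to 1-colour Agilent arrays (design 14868, probe positions on mm8). Per the file headers, the deposited processed signal is an intensity from Feature Extraction 9.5.3.1 (protocol GE1-v5_95_Feb07), background-subtracted within each array and not scaled between arrays. The authors' deposited table of log2 values was made with RMA per the submitters' processing notes, with its settings not given in the sources used here, and served as an alternative.

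Here log2 of the processed signal minus the array's 75th percentile was used, without control spots and outlier spots, and repeated spots were averaged. A probe was tested if well above background on all arrays of at least 1 group. Gene names came from the supplied RefSeq table. Each gene was read from its brightest tested probe. Genes were fitted with limma 3.58.1 in R 4.3.3 (with data.table, version 1.17.8), with 1 coefficient per group and 7 residual and 2.39 prior degrees of freedom, and adjusted over 15893 genes. Probe-level p-values were adjusted over 27093 probes.

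The rule set for genes given in full took, per list, up to 6 members called over both days, at day 0 or in the change between days. These were to be those with the largest fitted difference, with members that had saturated spots added. The text departs from it in places. F9 is given in full, although F5 and Kng1 had larger differences over both days. Fgb is given in full at day 2 alone, and C3 and Ahsg have no array values. Mbl1, C9 and Hpx are given in full outside the rule. The remaining members are named beside those given in full by their role, whatever their values. Members and lists were chosen with earlier results of these data known.

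Same-numbered day 2 arrays, which share a slide, deviated together (correlations 0.28, 0.227 and 0.258), so the number pairs them. The fit was tested on simulated data. Genes saturated on every array of a group are given as a bound or without a fold. The number of arrays limits the precision.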

Additional observations from a re-analysis of the deposited data

How the results depend on the processing

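Of the 26 members lower over both days, 11 (F9, F13b, Fga, Plg, Kng1, Hc, C4bp, Mbl2, Itih1, Itih3 and Itih4) passed under all 22 alternatives, which changed background correction, scaling, filter, probe choice, slide, pup sex or 1 left-out array. Leaving out 1 array gave 12 to 29 members over both days, 0 to 2 at day 0, 13 to 32 at day 2, 1 to 5 for day 2 against day 0 in controls and 7 to 13 in mutants. It gave 6 to 13 coagulation, 3 to 11 complement and 3 to 5 carrier genes over both days. Pup sex as a covariate, which coincides with genotype at day 0, gave 13 members over both days (6 coagulation, 4 complement, 3 carriers), 0 at day 0, 1 in controls and 7 in mutants. Quantile normalization gave 8 at day 2, 7 in mutants, 7 coagulation and 3 carrier genes. The authors' table gave 9, 6 and, for the carriers, 3. Median scaling gave 7 in mutants. Without the filter on dim probes there was 1 call at day 0 and 3 carriers. The replicate block gave 1 at day 0 and 3 carriers, and moved no other count by more than 1.5 times. The change between days gave 0 calls under every alternative. Vtn turned to 0.0039 after quantile normalization and 0.0083 in the authors' table, Hp to 0.015 after quantile normalization and Ahsg to 0.061 in the authors' table. The causes were not tested. Reading unsaturated probes left out Fgb and Ahsg, which have no other probe, and Fgb was not analysed in the authors' table.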
